A study of Mus musculus with 12 samples.

Results

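The 9 genes described here are cell-cycle inhibitors and members of the p53 axis, chosen by symbol from the 55367 gene symbols measured by RNA-seq in mouse muscle fibers. They are the CIP/KIP inhibitors Cdkn1a (p21), Cdkn1b (p27) and Cdkn1c (p57), the INK4 locus genes Cdkn2a and Cdkn2b, the transcription factor Trp53 (p53) with its ubiquitin ligase Mdm2, the G1 cyclin Ccnd1, and Lmnb1, which encodes lamin B1. Myofibers were isolated from the fast extensor digitorum longus (EDL) muscle of C57BL/6J mice and loaded with Fluo-4, a fluorescent calcium indicator. The 12 samples formed 3 groups of 4, which were fibers of young mice aged 3 to 4 months and, from aged mice of 26 to 28 months, fibers picked under a fluorescence stereomicroscope either for ordinary staining (Fluo-4 normal) or for aberrant, brighter staining (Fluo-4 abnormal). No group carried a transgene or was given a drug, the labels give no sex for these samples (the study first describes the abnormal staining in males), and how many mice or fibers a sample pooled is not given in the sources used here. The labels do not say that replicates came from separate mice, so the p-values measure only the spread between these samples.

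Cyclin-dependent kinases (CDKs) drive a cell from G1 into DNA synthesis, and cyclin D1 is among the cyclins that partner CDK4 and CDK6 in G1. The INK4 proteins block CDK4 and CDK6, whereas the CIP/KIP proteins bind CDKs together with their cyclins. p53 switches on Cdkn1a and Mdm2 after DNA damage and other stress, Mdm2 marks p53 for degradation, and a rise of p21 or p16 with a loss of lamin B1 is widely used to recognise senescent cells. The nuclei of a muscle fiber left the cell cycle when the fiber formed, and p21 and p57 are known for their part in that exit.

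The Cdkn1a gene spans chr17:29309936-29319701 (GRCm39, plus strand), and the p53 consensus, a decamer repeated with no spacer, was searched within 3000 bases on both sides of the canonical transcription start of each gene in GENCODE vM39. The motif reads the same on both strands, and its fixed C and G bases had to match. Among the 9 genes, a match with at most 1 mismatch was found near Cdkn1a and Cdkn2b. The Cdkn1a match lay 2836 bases before the canonical start, immediately before the annotated 5′ end of the gene, and is printed because it is the textbook element through which p53 acts on p21. Capitals mark the letters that match the consensus, shown with flanking bases for chr17:29309836-29309935 (plus strand).
Cdkn1a site: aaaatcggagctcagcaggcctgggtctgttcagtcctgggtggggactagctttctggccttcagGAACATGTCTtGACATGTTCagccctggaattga
The Cdkn2b match lay 2620 bases after the start, inside the gene, at chr4:89226637-89226656 (minus strand).
Cdkn2b site: AGACATGTCCGGtCTTGCTC
At most 1 mismatch was met near 127 of 13980 genes tested (0.91%), so such matches were rare, and near 3 of 28 genes of a list of p53 target genes. No match at this limit was found near Mdm2, Cdkn1c, Trp53, Cdkn1b, Cdkn2a, Ccnd1 or Lmnb1, which says only that these letters are not in this window. In the shorter RefSeq promoter windows (GRCm38.p6), 22 of 32851 held a match (0.067%), among them 1 of 2 promoters of Cdkn1a and none of those of the other 5 members with an entry.

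The promoter of Cdkn1a is printed because Cdkn1a had the highest mean TPM of the inhibitors in both groups of aged fibers. It covers the 250 bases before the canonical start, chr17:29312488-29312737 (GRCm39, plus strand), with capitals on the GC box GGGCGG, which was searched together with its other-strand form CCGCCC.
Cdkn1a promoter: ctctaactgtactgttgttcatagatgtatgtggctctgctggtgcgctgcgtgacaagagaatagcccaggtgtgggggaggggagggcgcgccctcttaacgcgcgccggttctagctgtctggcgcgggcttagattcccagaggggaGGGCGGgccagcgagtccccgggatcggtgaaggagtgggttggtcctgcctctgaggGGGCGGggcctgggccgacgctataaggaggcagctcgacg
The Cdkn1a promoter held 2 GC boxes. At least 1 GC box stood in 47.1% of 13980 promoters of the same length.

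Levels are given in TPM, the transcript abundance scaled for gene length and for the total of the sample, so genes can be ranked within a sample. The values of each sample sum to 1000000 and read depth is unknown. Of the 9 genes, 8 passed the filter of a mean of 0.02 TPM in at least 1 group and entered the test, while Cdkn2a was listed at 0 in all 12 samples. A mean of at least 5 TPM in a group was reached by 4 genes (Cdkn1a, Cdkn1c, Mdm2 and Trp53), and Ccnd1 stayed under 1 TPM in every group and is called low. Groups were compared on log2(TPM + 1) with limma over 14427 genes, with Benjamini-Hochberg adjustment over all of them, and "called" means an adjusted p under 0.05. On this scale the changes of low genes come out too small. In bulk fiber RNA, fewer nuclei or cells of a type and less RNA per cell cannot be told apart.

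**Figure D1:**
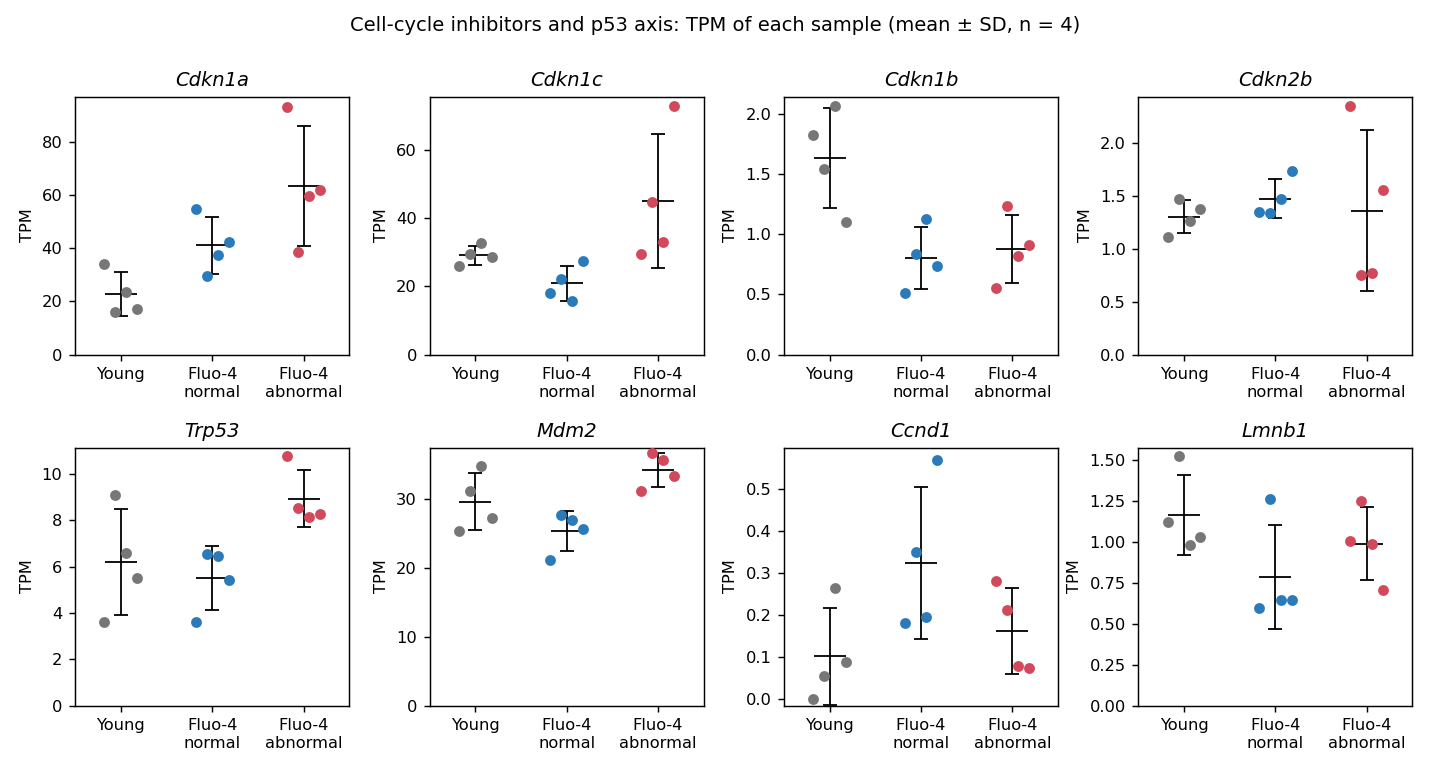
TPM of the 8 tested genes (y axis, linear, one scale per gene) in young, Fluo-4 normal and Fluo-4 abnormal fibers; points are samples 1 to 4 from left to right, with the mean and SD of 4 samples. Cdkn1a means run from 22.7 to 41.1 to 63.3 TPM, whereas Cdkn1c, Trp53 and Mdm2 are higher in abnormal than in normal fibers without overlap.

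The members called differed between the 3 comparisons. Cdkn1a, which encodes p21, was called higher in Fluo-4 abnormal fibers compared with young fibers. Cdkn1c, which encodes p57, and Mdm2, the ligase that degrades p53, were called higher in abnormal compared with normal fibers of aged mice. Calls did not follow the size of the change. Between the aged groups the log2 changes of Trp53 (0.63) and Cdkn1a (0.58), not called, were larger than that of Mdm2 (0.42). No member was called lower in any of the 3 comparisons. In abnormal against normal fibers 2 of 8 members were called, both higher, where 9.35% of all genes were called and 7.36% were called higher. In abnormal against young fibers 1 of 8 was called, higher, where 8.5% of all genes were called and 6.09% were called higher. In normal against young fibers 0 of 8 members were called by limma, where 1.15% of all genes were called. Cdkn1a, Cdkn1b and Ccnd1 had an unadjusted p under 0.05 there, as did 1865 of all 14427 genes. Among 8 members, counts this small do not set them apart from all genes.

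Cdkn1a had the highest mean of the 9 genes in both groups of aged fibers. In young fibers its level was 34.0, 16.1, 23.4 and 17.2 TPM (22.7 ± 8.21, SD, n = 4). In Fluo-4 normal fibers it was 54.9, 29.5, 37.5 and 42.4 TPM (41.1 ± 10.6). In Fluo-4 abnormal fibers it was 93.1, 38.5, 59.8 and 61.9 TPM (63.3 ± 22.5). In the TPM as deposited, every abnormal sample was above every young sample, whereas normal fibers overlapped both other groups. The first sample was the highest of its group in all 3 groups. Abnormal fibers held 2.79 times the mean TPM of young fibers, a log2 change of 1.43 (SE 0.27, 95% interval 0.85 to 2.02, adjusted p = 0.00622), and Cdkn1a was the only member whose groups did not overlap here, which held for 12.2% of all genes in the upward direction. The call held under all 17 alternatives, with adjusted p from 0.00211 to 0.0297. The summed Schwann cell markers (5 genes, 3.56 to 5.52 TPM in young, 3.74 to 15.8 in normal and 6.69 to 13.6 in abnormal fibers) and immune markers (6 genes, 0.014 to 0.449, 0.161 to 4.11 and 0.457 to 4.204 TPM) also did not overlap between young and abnormal fibers. The immune marker Cd68 overlapped (0 to 0.449 against 0.407 to 2.84 TPM), and the part of these cells in the Cdkn1a rise was not tested.

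The 2 steps between these groups were not called for Cdkn1a. Normal against young fibers gave a log2 difference of 0.85 (SE 0.27, adjusted p = 0.156), and abnormal against normal fibers gave 0.58 (SE 0.27, 95% interval -0.0016 to 1.16, adjusted p = 0.197). Within the same-numbered pairs of aged samples, the abnormal sample held 1.70, 1.30, 1.59 and 1.46 times the TPM of the normal sample. All 4 pairs thus pointed the same way, as did 27.9% of all genes in the upward direction. With the replicate number as a block the adjusted p was 0.0645, still not called. On the other strand, Gm64878 overlaps 7579 bases of Cdkn1a and Dino 1046 bases, and neither symbol was among those measured. The libraries do not mark strand, so reads from the overlaps cannot be told apart.

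Cdkn1c (chr7:143012069-143014806, minus strand) varied little between young samples, at 25.9, 29.4, 32.7 and 28.8 TPM (29.2 ± 2.80). Normal fibers of aged mice held 18.03, 22.3, 15.7 and 27.6 TPM (20.9 ± 5.20). Abnormal fibers held 29.4, 44.8, 33.0 and 72.8 TPM (45.0 ± 19.7). In the TPM as deposited, every abnormal sample lay above every normal sample, and the young samples lay between, overlapping both. Abnormal fibers had 2.15 times the mean of normal fibers, with a log2 change of 1.01 (SE 0.24, 95% interval 0.51 to 1.52, adjusted p = 0.0182). The ratios within the same-numbered pairs were 1.63, 2.01, 2.10 and 2.64. Against young fibers the log2 differences were 0.52 for abnormal fibers (adjusted p = 0.201) and -0.49 for normal fibers (adjusted p = 0.408).

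The Cdkn1c call kept its direction in all 19 alternatives and stayed past the threshold in 14. It missed the threshold with TMM-type scaling factors, which align the bulk of genes between samples (0.79, adjusted p = 0.0600), when only the groups compared were fitted (1.01, adjusted p = 0.0915), with the fast myosin gene Myh4, whose level moved with the groups, as a covariate (1.17, adjusted p = 0.210), without Fluo-4 normal replicate 1 (0.95, adjusted p = 0.0517) and without Fluo-4 abnormal replicate 2 (0.98, adjusted p = 0.0681). By contrast, the replicate block with the TPM as deposited gave 1.01 with an adjusted p of 0.000367. The block and TMM-type factors together, a fit added after seeing the data, gave an adjusted p of 0.00306. An antisense transcript that overlaps 892 bases of the gene, Gm44732, was at 0.421 to 2.72 TPM, and the libraries do not mark strand. On the same strand 4933417O13Rik overlaps all 2738 bases of Cdkn1c and was listed at 0 TPM in every sample.

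**Figure D2:**
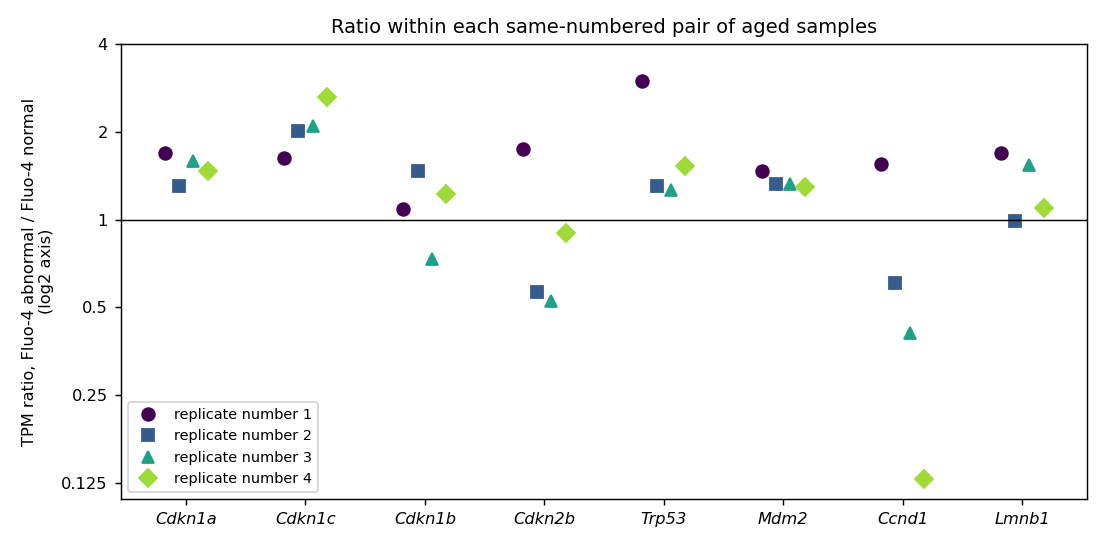
Ratio of TPM in Fluo-4 abnormal over Fluo-4 normal fibers (y axis, log2 scale, 1 means equal) for the 4 same-numbered pairs of aged samples, one marker per replicate number. Cdkn1a, Cdkn1c, Trp53 and Mdm2 lie above 1 in all 4 pairs, with Mdm2 between 1.30 and 1.47.

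Taken as a family, the transcripts of the 3 CIP/KIP genes summed to 47.0 to 61.7 TPM in young fibers, 52.6 to 73.4 TPM in normal fibers and 84.5 to 136 TPM in abnormal fibers. In the TPM as deposited the abnormal samples were thus the highest of the 12 for this sum. That order was not kept with TMM-type factors, where Fluo-4 abnormal replicate 2 was below Fluo-4 normal replicates 1 and 4. Fluo-4 abnormal replicate 3 was then also below Fluo-4 normal replicate 1. Cdkn1a supplied 34.2% to 55.1% of it in young fibers, 56.1% to 74.8% in normal fibers and 45.5% to 75.6% in abnormal fibers. In 3 of 4 young samples Cdkn1c was more abundant than Cdkn1a, and in all 4 normal samples Cdkn1a was the more abundant. Abnormal fibers were split, with Cdkn1a the more abundant in replicates 1 and 3 and Cdkn1c in replicates 2 and 4. These shares are descriptions and were not tested.

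Cdkn1b, which encodes p27, was the least abundant of the 3 and lay in the opposite direction. Young fibers held 1.82, 1.54, 2.07 and 1.10 TPM, normal fibers 0.508, 0.840, 1.13 and 0.740 TPM, and abnormal fibers 0.550, 1.24, 0.822 and 0.909 TPM. Of the young samples 3 were above all aged samples, and the fourth overlapped both aged groups. The log2 differences from young fibers were -0.48 in abnormal fibers (SE 0.16, adjusted p = 0.0813) and -0.54 in normal fibers (SE 0.16, adjusted p = 0.131), and neither was called. For abnormal fibers the difference passed the threshold with TMM-type factors (-0.57, adjusted p = 0.0269) and with Myh4 as a covariate (adjusted p = 0.0217). Between abnormal and normal fibers it was 0.06 (95% interval -0.29 to 0.40).

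The INK4 locus on chromosome 4 gave little transcript. Cdkn2a, whose products p16 and p19ARF act on CDK4 or CDK6 and on Mdm2, was listed at 0 in every young, normal and abnormal sample, and no fold can be given. Cdkn2b, which encodes p15, was at 1.11, 1.47, 1.26 and 1.37 TPM in young fibers, 1.35, 1.33, 1.47 and 1.73 TPM in normal fibers and 2.35, 0.754, 0.773 and 1.55 TPM in abnormal fibers. The abnormal samples held both the highest and the lowest values, so the groups overlapped fully. The log2 difference between abnormal and normal fibers was -0.12 (95% interval -0.53 to 0.29) and its sign changed between alternatives.

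Trp53 (chr11:69469669-69482701, plus strand) was at 3.62, 9.10, 6.60 and 5.50 TPM in young fibers (6.20 ± 2.29). Normal fibers held 3.60, 6.55, 6.46 and 5.44 TPM, and abnormal fibers held 10.8, 8.55, 8.15 and 8.28 TPM. All 4 abnormal samples were above all 4 normal samples, while the young samples spread over both. Abnormal against normal fibers gave a log2 difference of 0.63 (SE 0.22, 95% interval 0.15 to 1.11, adjusted p = 0.0964), which was not called. Groups that do not overlap in the upward direction were seen for 3 of 8 members in this comparison (Cdkn1c, Trp53 and Mdm2) and for 11.5% of all genes. The pair ratios were 2.99, 1.31, 1.26 and 1.52, and without Fluo-4 abnormal replicate 1, the highest sample, the difference was 0.55 (adjusted p = 0.192). Wrap53, a gene on the other strand that shares 1483 bases with Trp53, was at 0.999 to 3.70 TPM, and without strand their shared reads cannot be told apart.

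Mdm2 (chr10:117524780-117546730, minus strand) was in the same range as the leading inhibitors in young fibers. Young fibers held 25.4, 31.1, 34.8 and 27.3 TPM (29.7 ± 4.18). Normal fibers held 21.2, 27.7, 27.0 and 25.7 TPM (25.4 ± 2.92). Abnormal fibers held 31.3, 36.7, 35.7 and 33.4 TPM (34.3 ± 2.45). All abnormal samples were above all normal samples, and the young samples overlapped both. Mdm2 rose 1.35-fold in abnormal compared with normal fibers, with a log2 change of 0.42 (SE 0.11, 95% interval 0.18 to 0.66, adjusted p = 0.0299), and the pair ratios were 1.47, 1.32, 1.32 and 1.30. Against young fibers the difference was 0.21 for abnormal fibers (adjusted p = 0.285) and -0.21 for normal fibers (adjusted p = 0.449).

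The Mdm2 call was the less stable of the 2 and passed the threshold in 8 of 19 alternatives. With TMM-type factors the change was 0.20 (adjusted p = 0.196), with Myh4 as a covariate 0.09 (0.842), without the mitochondrially-encoded genes in the scaling 0.36 (0.0682), with sample quality weights 0.39 (0.0600) and with only the groups compared 0.42 (0.0540), and it was also lost without Fluo-4 normal replicate 1 (0.0744) or 4 (0.0607) and without Fluo-4 abnormal replicate 2 (0.0942), 3 (0.0767) or 4 (0.0598). With the replicate block it was called (adjusted p = 0.0146), but not with the block and TMM-type factors together (0.171). The Mdm2 to Trp53 ratio of TPM was 5.17 ± 1.48 in young fibers, 4.76 ± 0.794 in normal fibers and 3.90 ± 0.685 in abnormal fibers (SD, n = 4), with overlapping ranges.

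The median log2 difference of all genes between abnormal and normal fibers was 0.10 with the TPM as deposited and 0.00 with TMM-type factors. Low genes are part of it, and with a filter of 1 TPM it was 0.20. Relative to the median of 0.10 Cdkn1c was 0.91 higher, Trp53 0.53, Cdkn1a 0.48 and Mdm2 0.32. Of the 1349 genes called in this comparison 1062 were higher and 287 lower, whereas with TMM-type factors 850 were called, of which 307 were higher and 543 lower. Against young fibers the abnormal fibers had 879 genes higher and 347 lower, which became 446 and 693 with TMM-type factors. The directions of Cdkn1a, Cdkn1c, Trp53 and Mdm2 in abnormal against normal fibers were the same under both scalings, and that of Cdkn1b was not. Statements that groups did not overlap are for the TPM as deposited. Divided by the TMM-type factors, Cdkn1a in Fluo-4 abnormal replicate 2 was below young replicate 1. Cdkn1c in Fluo-4 abnormal replicate 1 was then below Fluo-4 normal replicate 4. Trp53 and Mdm2 still did not overlap between the aged groups.

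**Figure D3:**
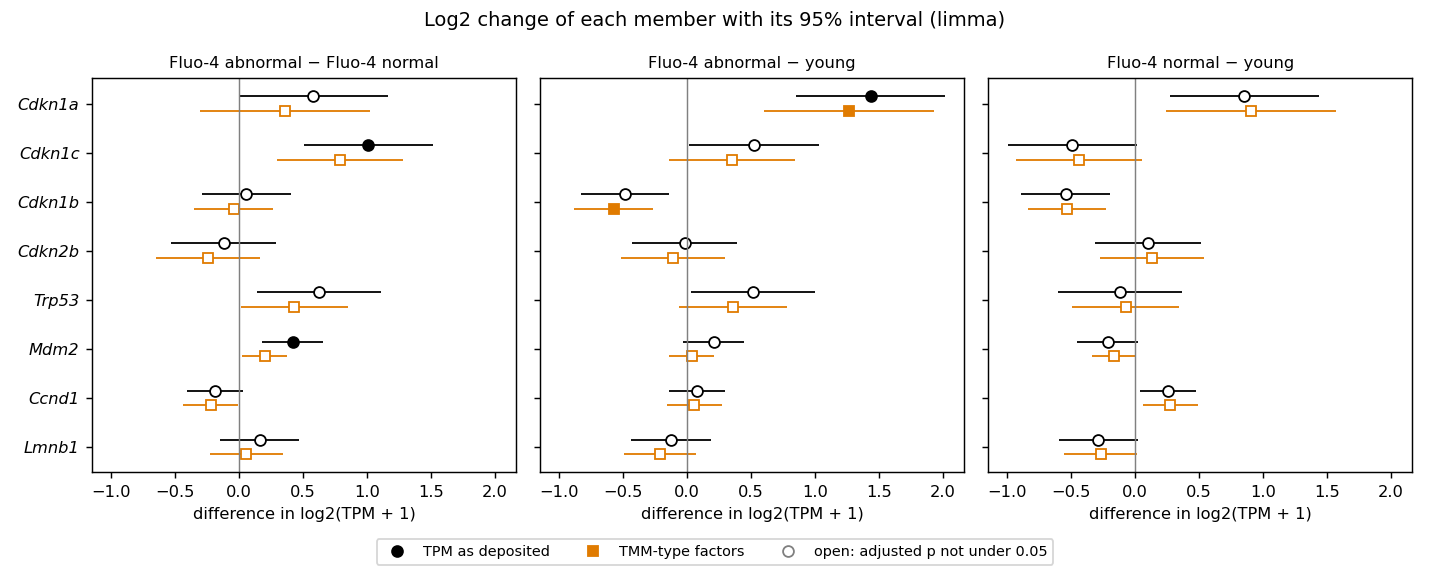
Log2 change of log2(TPM + 1) (x axis) with its 95% interval for the 8 tested genes (y axis) in the 3 comparisons; black circles use the TPM as deposited and orange squares TMM-type factors, filled where the adjusted p was under 0.05. Cdkn1a is called under both scalings in abnormal against young fibers. Of the scalings drawn, Cdkn1c (1.01 and 0.79) and Mdm2 (0.42 and 0.20) against normal fibers are called only with the TPM as deposited.

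Ccnd1, which encodes cyclin D1, was near 0. It was at 0, 0.055, 0.265 and 0.087 TPM in young fibers, 0.181, 0.350, 0.194 and 0.568 TPM in normal fibers and 0.281, 0.212, 0.079 and 0.073 TPM in abnormal fibers. The groups overlapped, and no difference was called (adjusted p from 0.283 to 0.700). LTO1, on the other strand, shares 2315 bases with Ccnd1 and was at 3.02 to 5.12 TPM.

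Lmnb1, the gene of lamin B1 in the nuclear envelope, was at 1.12, 1.52, 0.979 and 1.03 TPM in young fibers. Normal fibers held 0.596, 1.26, 0.644 and 0.643 TPM and abnormal fibers 1.01, 1.25, 0.987 and 0.706 TPM. Of the 4 normal samples 3 were below every other sample, and the fourth was in the range of young fibers. The log2 difference from young fibers was -0.29 in normal fibers (95% interval -0.60 to 0.03, adjusted p = 0.434) and -0.12 in abnormal fibers (95% interval -0.43 to 0.19, adjusted p = 0.663), and none was called. Marchf3, on the other strand, shares 466 bases with Lmnb1 and was at 0.676 to 2.24 TPM.

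Ranked by mean TPM, young fibers had Mdm2 (29.7) and Cdkn1c (29.2) ahead of Cdkn1a (22.7), normal fibers had Cdkn1a (41.1) ahead of Mdm2 (25.4) and Cdkn1c (20.9), and abnormal fibers had Cdkn1a (63.3), Cdkn1c (45.0) and Mdm2 (34.3). Neighbours among these 3 overlapped between samples, except Cdkn1a above Mdm2 in normal fibers. Trp53 came next in each group, below all 3 without overlap, and Cdkn1b, Cdkn2b, Lmnb1 and Ccnd1 were at 2.35 TPM or less in every sample.

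Other genes of the same pathways were described by lists, by counts and by the median difference. The median of all genes was 0.10 in abnormal against normal fibers and 0.07 in abnormal against young fibers. With a filter of 1 TPM these medians were 0.20 and 0.14. Of all genes, 7.36% were called higher between the aged groups and 6.09% in abnormal against young fibers. Between the aged groups 3693 of all 14427 genes had an unadjusted limma p under 0.05. Of 3 further CDK inhibitors tested, 1 rose, and the median was 0.02 against normal and 0.12 against young fibers. Cdkn2c, the INK4 gene of p18, was at 7.50 to 10.2 TPM in normal fibers and 12.4 to 15.3 TPM in abnormal fibers (log2 change 0.63, SE 0.13, adjusted p = 0.00950), and it rose against young fibers as well (0.71, adjusted p = 0.00486). Against normal fibers the Cdkn2c call was lost in 2 of 19 alternatives, with TMM-type factors (0.43, adjusted p = 0.0744) and with Myh4 as a covariate (0.65, adjusted p = 0.180). Of 14 G1 cyclins, CDKs and Rb genes limma called 0 between the aged groups (3 at an unadjusted p under 0.05), with a median of 0.09 there and 0.07 against young fibers. Ccnd3, the cyclin D3 gene, fell by 0.92 on the log2 scale in abnormal compared with young fibers (adjusted p = 0.00893) and also fell by 0.92 in normal compared with young fibers (adjusted p = 0.0322), the latter lost when any 1 young or normal library other than young replicate 4 was left out (adjusted p from 0.0522 to 0.127).

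Of 28 p53 target genes other than the members, 2 rose and none fell in abnormal compared with normal fibers. Of all genes 7.36% were called higher there. The list's median difference was 0.09 beside 0.10 for all genes. Eda2r, a death-domain receptor of the TNF receptor family, was at 2.12 to 2.44 TPM in young fibers, 1.23 to 6.97 TPM in normal fibers and 8.58 to 15.4 TPM in abnormal fibers. Every abnormal sample was above all others for Eda2r. It rose by 1.31 (SE 0.32, adjusted p = 0.0236) against normal and by 1.91 (SE 0.32, adjusted p = 0.00333) against young fibers, the latter under all 17 alternatives. Against normal fibers the Eda2r call was lost in 6 of 19 alternatives, without Fluo-4 normal replicate 2 (0.0548) or abnormal replicate 2 (0.0508), 3 (0.0758) or 4 (0.0739), with only the groups compared (0.107) and with Myh4 as a covariate (0.714). Xpc, a DNA damage recognition gene, rose by 0.49 against normal fibers (adjusted p = 0.0388), a call lost in 11 of 19 alternatives, TMM-type factors among them (0.211). Against young fibers Eda2r was the 1 gene of the 28 called, with a list median of 0.14 beside 0.07.

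Of 18 genes that regulate p53, limma called 0 between the aged groups (median 0.28 beside 0.10 for all genes). An unadjusted p under 0.05 was met by 7 of them, beside 3693 of all 14427 genes. In abnormal against young fibers 2 of the 18 rose (median 0.17 beside 0.07). Trp63, the p53 relative p63, had means of 3.25, 5.81 and 8.22 TPM in young, normal and abnormal fibers, and rose by 1.11 in abnormal (adjusted p = 0.000476) and by 0.68 in normal fibers (adjusted p = 0.0355) against young, the latter lost in 9 of 17 alternatives (adjusted p up to 0.109). Kat5, an acetyltransferase, rose by 0.48 (adjusted p = 0.0476), which was lost in 12 of 17 alternatives (up to 0.193). Of 18 tested genes of S, G2 and M phase, 12 were low in all groups and only Pcna, the DNA polymerase clamp, was called, at 0.31 against normal (adjusted p = 0.0280) and 0.34 against young fibers (adjusted p = 0.0212). The medians of this list were 0.08 and 0.04, beside 0.10 and 0.07 for all genes. The Pcna call was lost in 9 of 19 alternatives against normal and in 3 of 17 against young fibers, in both with TMM-type factors (adjusted p = 0.666 and 0.358).

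Of 13 nuclear lamina genes other than Lmnb1, Lmna (lamins A and C) rose by 0.56 (adjusted p = 0.0205) and Sun1, a nuclear envelope protein, by 0.49 (adjusted p = 0.0242) in abnormal compared with normal fibers, and the calls were lost in 6 of 19 (Lmna, adjusted p up to 0.621) and 7 of 19 alternatives (Sun1, up to 0.850), in both with TMM-type factors (0.0694 and 0.136). The list's median was 0.36 beside 0.10 for all genes, and 0.16 beside 0.00 with those factors. All 13 reached a mean of 1 TPM in a group, and the median of all genes that did so was 0.20. Banf1, which bridges chromatin and the lamina, fell by 0.37 in abnormal compared with young fibers (adjusted p = 0.00345), where the list's median was 0.21 beside 0.07. Of 14 tested senescence and secretory genes limma called 0 between the aged groups (0 at an unadjusted p under 0.05, median -0.06 beside 0.10 for all genes). Hmgb2, a chromatin protein known to be lost from senescent cells, rose by 0.91 in abnormal against young fibers (adjusted p = 0.0250, list median 0.08 beside 0.07), a call lost in 6 of 17 alternatives (up to 0.233).

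**Figure D4:**
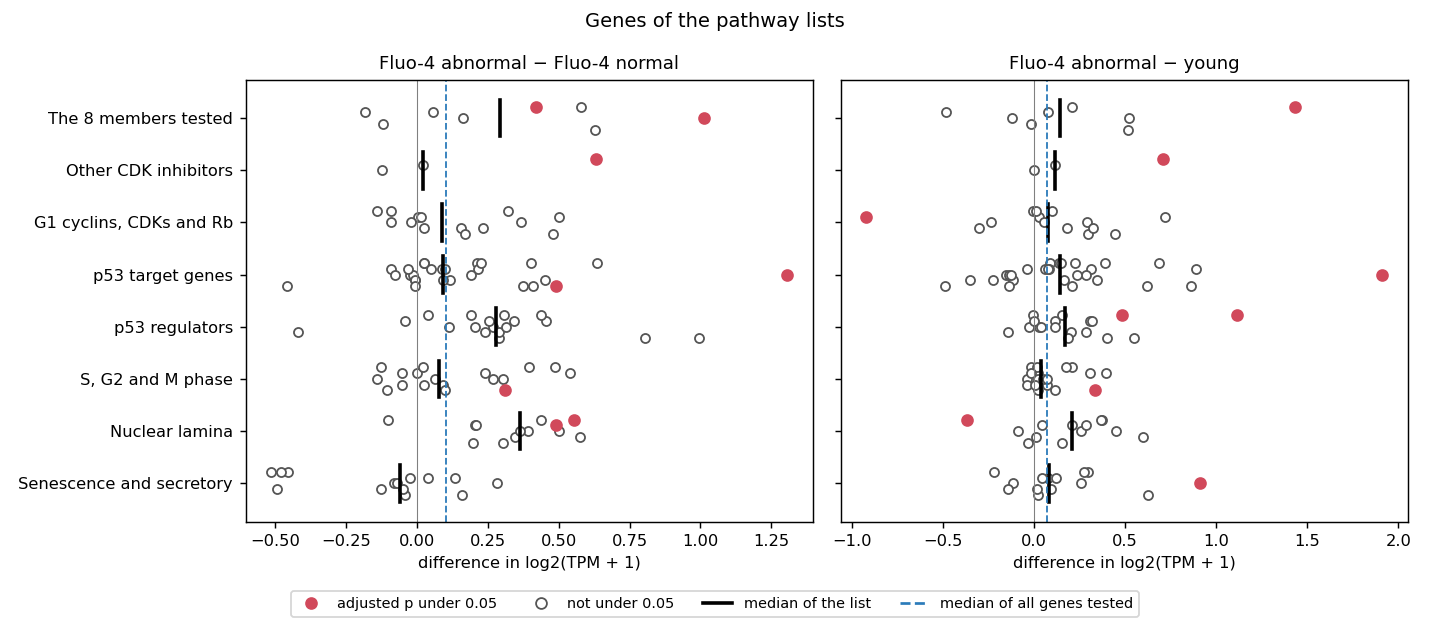
Log2 change of log2(TPM + 1) (x axis) of each tested gene in the member set and in 7 pathway lists (y axis), for abnormal against normal and abnormal against young fibers; red points had an adjusted p under 0.05, black bars are list medians and the dashed line is the median of all genes tested. The p53 target genes centre near the dashed line (0.09 beside 0.10 against normal fibers), with Eda2r the farthest to the right.

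Genes whose levels followed a member most closely were ranked by Pearson r of log2(TPM + 1) over the 12 samples among 9457 genes, as a description over samples that share groups and scaling. Cdkn1a was followed by Pdlim5 (r = 0.95) and Cpne2 (0.89), Cdkn1c by Abcd4 (0.94) and Dusp5 (0.93), Trp53 by Ddx27 (0.93) and Scaf8 (0.92), and Mdm2 by Stt3b (0.95) and Ehbp1l1 (0.95). Cdkn1b was followed by Gal (0.94) and Spop (0.93), Cdkn2b by Tmem138 (0.91) and Trmt10c (0.90), and Lmnb1 by Ndel1 (0.91) and Mrtfa (0.91). Mean TPM of Cpne2 was 3.73, 8.23 and 19.5 in young, normal and abnormal fibers.

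The samples carried the marks of fast muscle fibers. Acta1 was at 34218 to 47400 TPM, the satellite cell gene Pax7 at 0.109 TPM or less, the leukocyte gene Ptprc at 0.262 TPM or less, and Adipoq and Plin1 at 0 in all 12 samples. The summed satellite cell markers (6 genes) were 2.815 to 4.129 TPM in young, 1.247 to 3.119 TPM in normal and 1.265 to 3.433 TPM in abnormal fibers. Myh4, the fast myosin heavy chain, was at 8311 to 10381 TPM in young, 6254 to 9813 TPM in normal and 10770 to 15574 TPM in abnormal fibers, so it moved with the groups, as did the share of mitochondrially-encoded genes (7.35% to 8.01%, 8.75% to 10.9% and 4.75% to 6.92%). The summed fibroblast markers were 19.4 to 38.0, 25.3 to 82.4 and 13.6 to 63.8 TPM, the summed endothelial markers 3.14 to 7.31, 4.57 to 14.05 and 1.89 to 8.21 TPM, and the summed erythroid markers 33.1 to 121, 119 to 482 and 44.4 to 236 TPM in the same order. The summed smooth muscle and pericyte markers were 4.41 to 64.3, 5.09 to 22.7 and 3.34 to 12.2 TPM. Among them, Acta2 was at 0.293 to 37.1, 0.557 to 2.23 and 0.298 to 4.13 TPM. The part of these in the members' differences was not tested beyond the fits with Myh4 as a covariate and with the scaling that leaves out mitochondrially-encoded genes. Genes above 0 numbered 16841 to 17936 per sample.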

How the data were processed

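RNA of isolated EDL myofibers (10 ng) was made into SMART-Seq v4 libraries, which do not mark strand. The authors used DRAGEN 4.3 for alignment (GRCm39) and quantification, and deposited TPM per gene symbol, 1 table per sample. The annotation release is not given in the sources used here, and depth is unknown. Each table held 55487 lines and 55367 symbols, and values of 114 symbols on several lines were summed. From the deposited TPM, log2(TPM + 1) of 14427 protein-coding and mitochondrially-encoded genes with a mean of at least 0.02 TPM in 1 group was fitted with limma 3.58.1 (R 4.3.3, variance trend, Benjamini-Hochberg), all 12 samples in 1 model, after a test on simulated data. Alternatives changed scaling (TMM-type factors trimmed by 30% and 5%), pseudocount (0.1), filter, gene set, covariates, weights or samples. Text names all members, list genes with the smallest p among those called, some of the cell type markers, Myh4, and the 2 genes most like each member. Members and lists were chosen with earlier results of these data known. The labels number the aged samples alike, and deviations of same-numbered samples correlated at 0.415, 0.361, 0.423 and 0.281 (6348 genes), against -0.346 to 0.221 for others, so the numbers were taken as pairs. The main fit did not use the pairs, which entered only the pair ratios and the fits with the replicate block. No 2 samples were identical. Positions and sequences come from GENCODE vM39 (GRCm39) and RefSeq.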

Additional observations from a re-analysis of the deposited data

Results flagged for a closer look

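Of 24 sets of 4 values (8 members in 3 groups), 2 held a sample far from its group, by a gap to the nearest sample that passed Dixon's 95% critical value, which chance passes in about 5% of such sets. The highest Trp53 value of the Fluo-4 abnormal fibers, 10.8 TPM in replicate 1, stood above the others at 8.15 to 8.55 TPM (gap 0.847 of the range). The highest Lmnb1 value of the Fluo-4 normal fibers, 1.26 TPM in replicate 2, stood above the others at 0.596 to 0.644 TPM (gap 0.928 of the range). Without that sample, the Lmnb1 difference between abnormal and normal fibers was 0.28 with an adjusted p of 0.188, beside 0.16 and 0.514 with it.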

How the results depend on the processing

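Genes called in abnormal against normal fibers numbered 1349, and 850 with TMM-type factors, 2281 with the replicate block for the paired aged samples, 566 with only the groups compared, 126 with Myh4 as a covariate and 606 to 1420 with 1 replicate left out (606 without Fluo-4 abnormal replicate 2). In abnormal against young fibers 1226 became 753 with Myh4 as a covariate and 576 to 1192 with 1 replicate left out (576 without young replicate 4). In normal against young fibers 166 became 258 with a filter of 1 TPM, 69 with only the groups compared, 358 with sample quality weights and 45 to 183 with 1 replicate left out (45 without young replicate 2). With the TPM as deposited the block changed no member's call. With TMM-type factors it added that of Cdkn1c against normal fibers (limma adjusted p = 0.0600 without the block and 0.00306 with it). Over all alternatives of the members, 385 of 421 values kept their direction and their side of the threshold, 16 lost a call (5 for Cdkn1c and 11 for Mdm2, both against normal fibers), 2 gained one (Cdkn1b against young fibers) and 18 changed sign, none of them called. In abnormal against normal fibers Cdkn1b gave -0.04 with TMM-type factors, also with the block, -0.389 with Myh4 as a covariate, and -0.03 to 0.147 with 1 replicate left out (-0.024 and -0.03 without Fluo-4 normal replicate 1 or abnormal replicate 2). Cdkn2b gave 0.302 with Myh4 as a covariate and -0.305 to 0.005 with 1 replicate left out (above 0 without abnormal replicate 2 or 3), and Lmnb1 gave -0.051 with Myh4. In abnormal against young fibers Cdkn2b gave 0.247 with Myh4 and -0.204 to 0.107 with 1 replicate left out (above 0 without young replicate 2 or abnormal replicates 2 or 3). In normal against young fibers Cdkn2b gave -0.055 with Myh4, and Trp53 gave 0.006 with sample quality weights, 0.012 with Myh4 and -0.311 to 0.066 with 1 replicate left out (above 0 without young replicate 2 or normal replicate 1). The cause of these shifts was not tested. Without read counts, values under 1 TPM such as those of Ccnd1 have no known counting error.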
